A study of Mus musculus with 6 samples.

Results

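The ADAM and ADAMTS genes encode 2 related families of zinc metalloproteinases that cut proteins at or outside the cell surface. They were taken as all genes whose mouse symbol begins with Adam and a number or with Adamts, ADAMTS-like genes included, with each array probe named through its RefSeq accession. This gave 58 genes among the 23462 named genes of the array, namely 34 ADAM, 19 ADAMTS and 5 ADAMTS-like genes, represented by 98 probes. Gene expression was measured in the colon of 6 male mice, 3 labelled control and 3 labelled Islr knockout, with 1 single-colour Agilent array per mouse. According to the sample source, all 6 mice had drunk 3.5% dextran sulfate sodium, which injures the colonic epithelium, for 5 days and had then recovered for 1 day; another field of the same labels states no treatment. Age, strain, the Islr allele and the cells in which Islr was deleted are not given in the sources used here, so the knockout is described only as labelled. The comparison asked how colonic expression differed in mice lacking Islr, a secreted leucine-rich repeat protein of stromal cells.

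ADAM proteins are mostly anchored in the membrane, where the catalytically active members release the outer parts of growth factors, cytokines, receptors and adhesion molecules, a step called shedding. ADAM10 and ADAM17 are the best known shedding enzymes of the gut, acting on Notch receptors and on tumour necrosis factor and ligands of the EGF receptor. ADAMTS proteins are secreted, bind the extracellular matrix through thrombospondin repeats, and cut proteoglycans, procollagens and other matrix proteins, whereas ADAMTS-like proteins lack the protease domain and associate with microfibrils.

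Signals are given as log2 of the processed intensity minus the 75th percentile of the same array, so that 0 is that percentile, and differences are knockout minus control. The 75th percentile was 6352.7 to 7110.5 intensity units on the control arrays and 4910.5 to 5820.0 on the knockout arrays, and 69.4% to 75.4% of spots were well above background. Knockout replicate 1 had the lowest value of both. It also had the most spots marked as outliers, 16.0%, followed by control replicate 1 with 13.6%. What part this had in the values of these 2 arrays was not tested. Islr itself, at its only probe, differed by -2.44 (SE 0.21, adjusted p 0.0171 in limma), with control replicate 1, an outlier spot, left out. With that spot kept, all 3 knockout arrays lay below all 3 control arrays. The probe was well above background on all 6 arrays, so Islr signal remained in the knockouts. All 56 marker genes of 9 cell types checked were well above background on at least 1 array, epithelial, stromal, muscle and leukocyte markers among them, so the samples held the cells of a whole colon wall. All 3 controls lay in slide row 1 and all 3 knockouts in slide row 2, so row and genotype cannot be told apart. In such bulk samples, fewer cells of a type and less RNA per cell cannot be told apart either.

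Most of the 58 genes gave a signal. In 37 of them at least 1 probe was well above background on all 6 arrays: Adam1a, Adam5, Adam8, Adam9, Adam10, Adam11, Adam12, Adam15, Adam17, Adam18, Adam19, Adam21, Adam22, Adam23, Adam28, Adam30, Adam32 and Adam33; Adamts1, Adamts2, Adamts4 to Adamts10, Adamts13 to Adamts16, Adamts18 and Adamts20; and Adamtsl1, Adamtsl2, Adamtsl4 and Adamtsl5. Adamts3 and Adamts12 were well above background on every control array and on no knockout array, and none of the 58 genes showed the opposite. The share of all genes with either pattern was not determined. The knockout arrays were the dimmer ones at the percentile used for scaling. Spots well above background made up 72.7%, 75.1% and 75.4% of the control arrays and 69.4%, 74.1% and 73.2% of the knockout arrays. What part this had in the detection of Adamts3 and Adamts12 was not tested. Another 11 genes were above background on some arrays (Adam1b, Adam2, Adam3, Adam4, Adam6a, Adam6b, Adam26a, Adam34l, Adamts17, Adamts19 and Adamtsl3). The 8 genes not above background on any array were all ADAMs outside the widely expressed group, namely Adam7, Adam20, Adam24, Adam25, Adam26b, Adam29, Adam34 and Adam39, many of which are known from testis. Of the 24 ADAMTS and ADAMTS-like genes, none was below background throughout.

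Testing required a probe that rose well clear of background on every array of 1 genotype or both, with 2 or more usable values per genotype, and a gene is represented by its brightest tested probe. This left 43 of 58 genes. Since this filter admits genes through the group in which they are high, the counts that follow describe the tested genes only. The 15 untested genes were Adam9 and Adamts9, whose bright spots were marked as outliers on too many arrays, and 13 dim ADAMs.

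With limma and a false discovery rate of 5%, 3 of the 43 tested genes were lower in the knockout, Adam23, Adamts7 and Adamts14, and 0 were higher. Among all 16451 named genes tested, 2.47% were called lower and 1.35% higher; among all 35351 probes tested, 3.97% were called, 2.42% lower and 1.55% higher. A weaker criterion, an unadjusted p under 0.05 with at least a 2-fold change, was met by 9 genes that were lower (5.70% of all genes) and by 1 that was higher (6.65% of all genes). At an unadjusted p under 0.05 alone, 14 were lower (14.5% of all genes) and 3 higher (13.7% of all genes). The median log2 fold change was -0.11 over the 43 genes against 0.01 over all named genes, and it was 0.15 without knockout replicate 1. The median over these genes was -0.01 for the 35 well above background on all 6 arrays and -0.0027 with no filter on background. By branch, 13 of 18 tested ADAMTS genes had a negative fold change with a median of -0.80, whereas 13 of 20 tested ADAMs had a positive one with a median of 0.07. Among all genes 48.8% had a negative fold change and 51.2% a positive one, and the difference between the branches was not tested. Restricted to probes above background on all 6 arrays, where no gene enters through 1 genotype, 10 of 14 ADAMTS genes were negative with a median of -0.58, and 11 of 17 ADAMs positive with a median of 0.05.

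**Figure D1:**
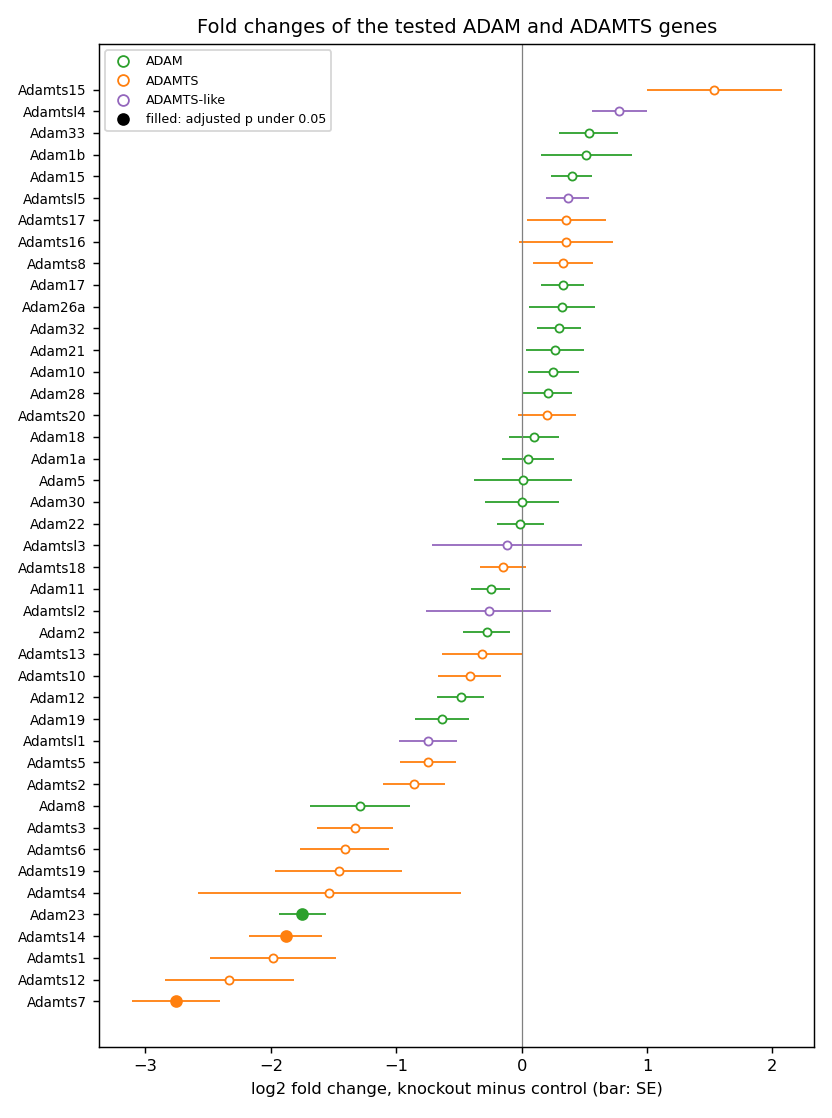
Log2 fold change (knockout minus control, x axis) of the 43 tested ADAM, ADAMTS and ADAMTS-like genes, each at the probe that stands for it, with bars of 1 SE; filled points have an adjusted p under 0.05 in limma. The 3 filled points, Adamts7, Adamts14 and Adam23, lie at -2.76, -1.88 and -1.75, and the ADAMTS genes occupy most of the lower end of the plot.

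Adamts7 and Adamts12 encode a pair of closely related secreted proteases that cut cartilage oligomeric matrix protein, and Adamts7 is known from vascular smooth muscle. Adamts7 had log2 signals of 1.66, 1.45 and 1.30 in the controls and of -2.06, -0.67 and -1.12 in the knockouts. The highest knockout thus lay about 2 log2 units under the lowest control, with every array well above background. In log2 units Adamts7 fell by 2.76, with an SE of 0.35 and an adjusted p of 0.0260 in limma, which is 6.76-fold. Its call was lost without control replicate 2, control replicate 3 or knockout replicate 3 (adjusted p 0.0667 to 0.0744), while the difference stayed between -3.07 and -2.37.

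Adamts12 was measured in the controls alone. Its signals were -3.18, -4.80 and -4.74 in controls, all well above background, and -7.25, -6.06 and -6.40 in knockouts, none of them above it. Control replicate 1 was the highest array, and the groups did not overlap. Only a bound set by background can therefore be given. Each knockout array was taken at the lowest signal well above background, or at the probe's own where higher. The mean of the 3 controls was at least 2.40-fold over that level. This mean includes the high control replicate 1, so the bound covers the mean and not each control. The adjusted p of Adamts12 was 0.0559 in limma. The gene passed under median scaling of the arrays (0.0455), with array weights (0.0175) and without control replicate 1 (0.0496).

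The procollagen N-propeptidases Adamts2, Adamts3 and Adamts14 remove the amino-terminal propeptides of fibrillar collagens, and Adamts3 is also required to process the lymphatic growth factor VEGF-C. All 3 had negative fold changes without overlap between the groups, as did 19.4% of all genes measured on all 6 arrays, and Adamts3 entered the test only through the controls. Adamts14 was called at both of its probes. At the brighter probe its signals were -0.49, -0.84 and -0.51 in controls against -3.12, -2.10 and -2.27 in knockouts, a separation of more than 1 log2 unit. It fell by 1.88 (SE 0.29, adjusted p 0.0329). At the other probe it fell by 1.12 (SE 0.21, adjusted p 0.0446). The call at the brighter probe was lost without control replicate 2, control replicate 3 or knockout replicate 3 (adjusted p 0.0816 to 0.0907) and, narrowly, with no filter on dim probes (0.0509) or with both probes averaged (0.0505).

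Adamts3 resembled Adamts12 in being above background in the controls only. Its signals were -5.33, -4.80 and -4.33 in controls against -6.52, -5.79 and -6.15 in knockouts. By the same reckoning, Adamts3 had a control mean at least 1.60-fold higher (adjusted p 0.0610 in limma). It passed in 5 alternative fits: median scaling (0.0359), quantile normalization (0.0323), normexp with quantile normalization (0.0443), array weights (0.0138) and without control replicate 1 (0.0414). Adamts2, the main propeptidase of skin and tendon, had signals of 1.85, 1.66 and 1.61 in controls against 0.33, 1.12 and 1.1 in knockouts. Knockout replicate 1 was the lowest array, and the difference of -0.86 (SE 0.25) did not pass (adjusted p 0.0914); it passed with array weights (0.0369).

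Adam23 is a membrane ADAM without protease activity, a ligand of integrins and of the secreted protein LGI1, best known from neurons. It was the only ADAM called. Its signals were -0.13, -0.13 and -0.50 in controls against -2.24, -1.88 and -1.88 in knockouts, so that arrays of a genotype lay close together and far from the other genotype. Adam23 fell by 1.75 (SE 0.19, adjusted p 0.0188), a 3.36-fold decrease. Another probe, at -0.24, -0.29 and -0.66 in controls against -1.90, -2.06 and -1.70 in knockouts, fell by 1.49 (SE 0.19, adjusted p 0.0251). The third and dimmest probe was well above background on the controls only. The call at the first probe held in 4 of 6 fits with an array left out and was lost without control replicate 2 (adjusted p 0.0641) or knockout replicate 3 (0.0565). Without control replicate 3 it passed narrowly (0.0491), while the other probe, the brighter of the pair in that fit, did not (0.0549). The other neuronal ADAMs without protease activity, Adam11 and Adam22, had smaller differences, of -0.25 (SE 0.15, adjusted p 0.351) and -0.01 (SE 0.19, adjusted p 0.979), each with a dimmer probe of the opposite sign. Beside Adam23, the neuron and glia markers gave 5 of 5 tested members below 0 (48.8% of all genes) with a median of -0.22 and 0 called. The part of neurons and glia in the Adam23 result was not tested.

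Adamts6 and Adamts10 bind fibrillin microfibrils. Adamts6 was called at 1 of its 2 tested probes, which is not the probe that stands for the gene. At the called probe its signals were -2.71, -3.0 and -3.64 in controls against -5.89, -4.48 and -5.35 in knockouts. It fell there by 2.12 (SE 0.40, adjusted p 0.0448), a size that is uncertain because 1 of the 3 knockout spots did not rise above background. The brighter probe went from -1.89, -1.26 and -1.59 to -3.73, -2.42 and -2.83, without overlap, and its difference of -1.41 (SE 0.36) missed the threshold (adjusted p 0.0709); it passed under median scaling (0.0424), normexp with quantile normalization (0.0492) and array weights (0.0161). Adamts10 differed by -0.42 (SE 0.25, adjusted p 0.328), with overlapping groups.

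**Figure D2:**
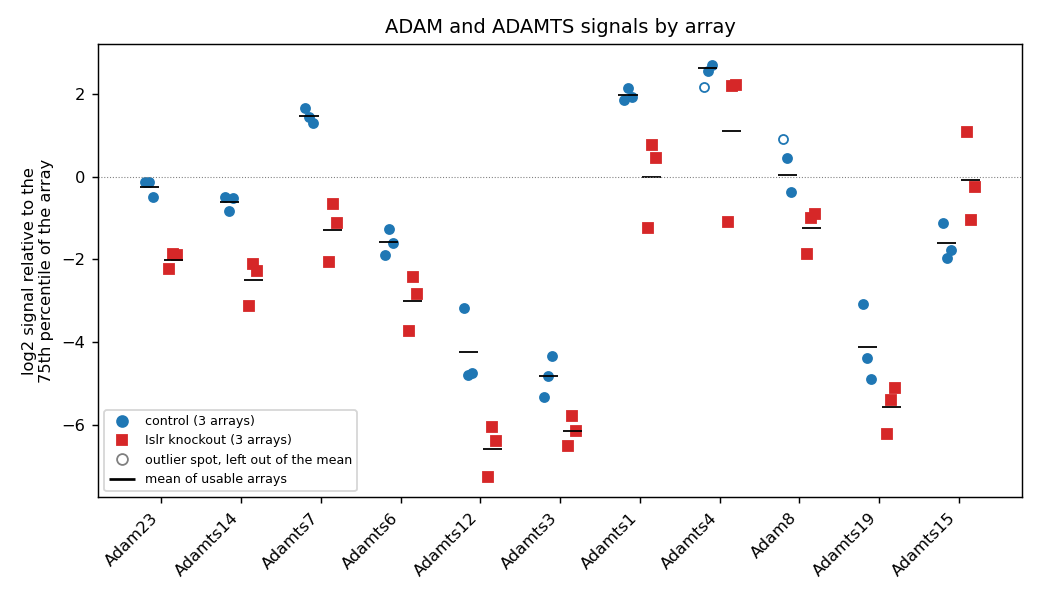
Log2 signal minus that of the array's 75th percentile (y axis) for 11 ADAM and ADAMTS genes on each of 3 control arrays (circles) and 3 Islr knockout arrays (squares); open symbols are outlier spots left out of the fit, and horizontal bars are means of the usable arrays. Among the genes usable on all 6 arrays, the genotypes are fully separated for the called Adam23, Adamts14 and Adamts7. They are also separated for Adamts1, Adamts3, Adamts6, Adamts12, Adamts15 and Adamts19, which were not called at these probes. The knockout arrays of Adamts1 and Adamts4 spread widely because knockout replicate 1 is far below the others.

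Promoters of the called genes Adam23 and Adamts14 are shown as context for genes that were lower together. That of Adamts7, also called, was not among the windows held. RefSeq windows of 300 bases, from 250 before to 50 after the annotated start on GRCm38.p6, were held for 32 of the 58 genes, Adam23 and Adamts14 included; that of Adamts1, the early-response protease of the next paragraph, is printed for comparison. Capitals mark matches, on either strand, to a GC box spelled GGGCGG, to a TATA box spelled TATAAA, to a CCAAT box, to an AP-1 motif spelled TGANTCA or to a TEAD motif spelled GGAATG.
Adam23, chr1:63445641-63445940, plus strand: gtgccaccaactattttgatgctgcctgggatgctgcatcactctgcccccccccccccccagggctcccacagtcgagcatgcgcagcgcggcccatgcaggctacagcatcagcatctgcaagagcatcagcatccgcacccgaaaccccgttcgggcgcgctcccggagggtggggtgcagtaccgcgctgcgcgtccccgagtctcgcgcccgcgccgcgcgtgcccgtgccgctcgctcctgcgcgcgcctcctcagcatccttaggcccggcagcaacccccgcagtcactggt
Adamts14, chr10:61273370-61273669, minus strand: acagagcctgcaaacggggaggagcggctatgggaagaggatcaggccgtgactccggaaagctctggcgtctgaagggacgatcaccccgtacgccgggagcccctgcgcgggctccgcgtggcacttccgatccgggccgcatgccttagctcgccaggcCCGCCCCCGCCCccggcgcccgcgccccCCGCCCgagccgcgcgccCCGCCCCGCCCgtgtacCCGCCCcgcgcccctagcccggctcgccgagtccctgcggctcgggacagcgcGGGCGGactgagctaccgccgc
Adamts1, chr16:85803064-85803363, minus strand: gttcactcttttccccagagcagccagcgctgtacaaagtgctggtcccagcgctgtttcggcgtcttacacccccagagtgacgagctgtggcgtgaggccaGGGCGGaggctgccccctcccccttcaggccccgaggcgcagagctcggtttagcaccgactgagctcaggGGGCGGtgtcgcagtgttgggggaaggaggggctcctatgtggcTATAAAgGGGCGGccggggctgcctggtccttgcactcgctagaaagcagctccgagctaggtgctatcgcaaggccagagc
The 3 windows differed in composition. Adamts14 held 7 GC boxes, 2 of which overlap by 1 base, and 44 CpG dinucleotides; Adam23 held 31 CpG dinucleotides and none of the 5 motifs. Adamts1 held 3 GC boxes and a TATA box at positions -32 to -27 from the start. Among all 32851 windows of the same length, 35.7% held a GC box, 13.6% a TATA box, 37.4% a CCAAT box, 7.81% an AP-1 motif and 14.7% a TEAD motif. The median CpG count was 7. These matches are letters in a window and were not tested against the expression values.

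The proteoglycanases cut versican, aggrecan and related proteoglycans, and Adamts1, Adamts4, Adamts5 and Adamts9 are induced in inflamed or remodelling tissue. None of the 6 tested members was called. At an unadjusted p under 0.05 in limma, 2 were lower (14.5% of all genes) and 1 higher (13.7% of all genes). Adamts1 had signals of 1.85, 2.15 and 1.93 in controls against -1.24, 0.76 and 0.44 in knockouts. The groups were separate, with knockout replicate 1 clearly the lowest. The difference of -1.98 (SE 0.50) did not pass (adjusted p 0.0720); it passed under median scaling (0.0470), normexp with quantile normalization (0.0477) and array weights (0.0174), and was -1.37 without knockout replicate 1.

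Adamts4 depended most on a single array. At the probe that stands for it, the usable signals were 2.56 and 2.71 in controls 2 and 3 and -1.10, 2.20 and 2.21 in knockouts. Knockouts 2 and 3 thus lay just under these 2 controls and knockout 1 far below. Control replicate 1, an outlier spot, read 2.16, which is under knockouts 2 and 3. The difference was -1.53 (SE 1.05, adjusted p 0.398), and -0.43 without knockout replicate 1. The other probes gave larger values with the same array lowest: 2.03, 1.98 and 1.96 in controls against -3.99, 0.86 and 0.05 in knockouts, a difference of -3.02 (SE 1.17, adjusted p 0.160), and a further one of -4.12 (SE 1.53, adjusted p 0.179). All 3 Adamts4 probes thus agreed in sign and none was called.

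Adamts5, the neighbour of Adamts1 on chromosome 16 and the main aggrecanase of mouse cartilage, had signals of -3.50, -3.79 and -3.71 in controls against -4.79, -4.41 and -4.04 in knockouts. The groups did not overlap, and the difference was -0.75 (SE 0.22, adjusted p 0.0959). Its other probe differed by -2.29 (SE 0.71, adjusted p 0.115), and 1 of its 3 knockout spots did not rise above background, so the size for Adamts5 is uncertain. Adamts9, a protease with anti-angiogenic activity, could not be tested because 3 of 6 spots were outliers. With these spots kept, its signals were 0.30, 0.87 and 0.42 in controls against -2.17, -0.61 and -1.13 in knockouts, a difference of -1.83 (SE 0.40, adjusted p 0.0519).

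Another neighbouring pair, Adamts15 and Adamts8 on chromosome 9, had positive values. Adamts15 had the largest positive fold change among the 43 tested genes, with signals of -1.11, -1.96 and -1.76 in controls against 1.08, -1.05 and -0.25 in knockouts. The lowest knockout was only just above the highest control. The difference of 1.54 (SE 0.54) did not pass (adjusted p 0.131), passed with array weights (0.0374), and was 0.96 without knockout replicate 1. Adamts8 differed by 0.33 (SE 0.24, adjusted p 0.418) and Adamts20 by 0.20 (SE 0.23, adjusted p 0.608), both with overlapping groups. Knockout replicate 1 was thus the lowest array for Adamts1, Adamts4 and Adamts5 and the highest for Adamts15.

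**Figure D3:**
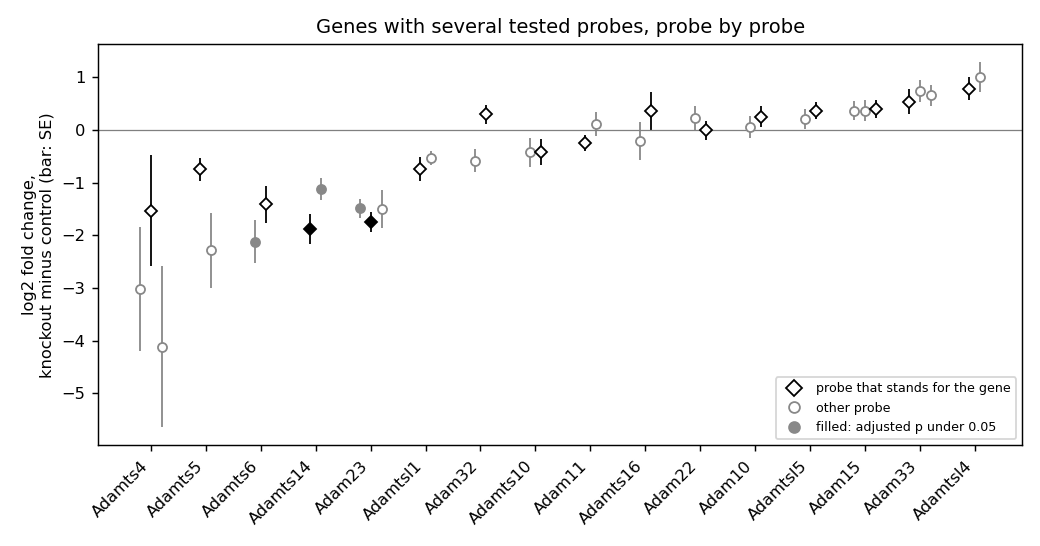
Log2 fold change (knockout minus control, y axis, bars of 1 SE) of every tested probe for the 16 ADAM, ADAMTS and ADAMTS-like genes with several tested probes; diamonds mark the probe that stands for the gene, and filled symbols have an adjusted p under 0.05 in limma. Probes of Adamts4 and Adamts5 lie more than 1 log2 unit apart, and 4 genes (Adam11, Adam22, Adam32 and Adamts16) have probes on both sides of 0.

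The remaining ADAMTS genes showed no call. Adamts19 had signals of -3.07, -4.37 and -4.88 in controls against -6.21, -5.38 and -5.11 in knockouts, the last group just below the first, with 2 of 3 knockout arrays well above background. It differed by -1.46 (SE 0.51, adjusted p 0.129). Adamts13, the liver-derived protease that trims von Willebrand factor, differed by -0.32 (SE 0.32, adjusted p 0.559) with signals of -4.50, -3.68 and -3.60 in controls against -4.66, -3.84 and -4.22 in knockouts. Adamts16, Adamts17 and Adamts18 differed by 0.35, 0.36 and -0.15, with adjusted p of 0.582, 0.502 and 0.641.

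Among the ADAMTS-like genes, which lack a protease domain, 0 of 5 were called. At an unadjusted p under 0.05 in limma, 1 was lower (14.5% of all genes) and 1 higher (13.7% of all genes). Adamtsl4, a fibrillin-binding protein of the eye's zonule, had signals of 0.22, -0.19 and -0.23 in controls against 0.51, 0.56 and 1.06 in knockouts. It was higher on every knockout array, by 0.78 (SE 0.22, adjusted p 0.0876), and by 1.00 (SE 0.28, adjusted p 0.0978) at its other probe. Adamtsl1 went the other way at both probes, by -0.75 (SE 0.23, adjusted p 0.1) and -0.53 (SE 0.14, adjusted p 0.0743), again without overlap. Adamtsl5 differed by 0.37 (SE 0.17, adjusted p 0.220). Adamtsl2 and Adamtsl3 varied widely within each genotype, and their differences of -0.26 (SE 0.50) and -0.11 (SE 0.60) were smaller than their errors.

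Among the widely expressed ADAMs 0 of 8 tested were called in limma. At an unadjusted p under 0.05, 3 were lower (14.5% of all genes) and 1 higher (13.7% of all genes). Adam10 had usable signals of 1.85 and 2.0 in controls against 2.24 and 2.12 in knockouts, a difference of 0.25 (SE 0.20, adjusted p 0.480). For Adam17 the bright probe had no usable knockout spot. With outlier spots kept it read 0.28, 0.67 and 0.84 in controls against 0.61, 0.69 and 0.36 in knockouts, a difference of -0.05 (SE 0.20), and its dim tested probe differed by 0.33 (SE 0.17, adjusted p 0.273). Adam17 thus showed overlapping groups at its bright probe, read with outlier spots kept, and separate groups at its dim tested probe, with knockouts higher. At the Adam10 probe the error was close to the size of the difference. Adam9, another broadly expressed sheddase, could be read only with outlier spots kept, at 2.04, 1.94 and 2.09 in controls against 1.64, 1.73 and 1.66 in knockouts. Its difference there was small but without overlap, -0.35 (SE 0.14, adjusted p 0.170).

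Adam8, a sheddase of neutrophils and macrophages, showed a larger difference than the other widely expressed ADAMs that were tested. Its usable signals were 0.46 and -0.38 in controls against -1.86, -0.99 and -0.89 in knockouts, and control replicate 1, an outlier spot, read 0.92. The difference was -1.29 (SE 0.40, adjusted p 0.115), and it passed only with array weights (0.0370). The other Adam8 probe rose above background on 2 control arrays and on none of the knockouts. Of the neutrophil markers, 5 of 6 tested were called lower (2.47% of all genes), among them S100a8 and S100a9, with a median of -3.79. The list was not uniform: Csf3r differed by 0.17, and Ly6g, a defining surface marker of mouse neutrophils that could be read only with outlier spots kept, was higher on every knockout array, by 0.78 (SE 0.25, adjusted p 0.106). The summed level of the 7 listed neutrophil markers, in multiples of the 75th percentile, was 24.1 to 25.8 in controls against 17.0 to 18.8 in knockouts. In the knockouts this sum rested mostly on Csf3r (log2 signals of 3.31, 3.14 and 3.14) and Ly6g (3.08, 2.82 and 3.06). It therefore does not give the size of the change in the 5 called markers, which differed by -1.93 (Cxcr2) to -4.47 (Retnlg). Of 5 tested macrophage markers, 4 had a negative fold change (48.8% of all genes), with a median of -0.56 and 0 called. The part of these cells in the Adam8 result was not tested.

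Adam12 and Adam19, ADAMs of mesenchymal cells, were both lower on every knockout array without being called. Adam12 went from -3.72, -3.54 and -3.43 to -4.34, -3.85 and -3.95, a difference of -0.48 (SE 0.19, adjusted p 0.160). Adam19 went from -0.44, -0.45 and -0.36 to -1.48, -0.83 and -0.85, a difference of -0.64 (SE 0.21, adjusted p 0.120). Adam15, an ADAM of epithelium and endothelium with an integrin-binding motif, was on the other side. Its signals were 1.92, 1.85 and 2.02 in controls against 2.56, 2.24 and 2.19 in knockouts, a difference of 0.40 (SE 0.17, adjusted p 0.182), and its other 2 probes gave 0.37 and 0.36. Adam33, known from airway smooth muscle, differed by 0.53 (SE 0.23, adjusted p 0.203), by 0.73 (adjusted p 0.0888) and by 0.66 (adjusted p 0.0981) at its 3 probes, and passed with array weights.

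Across the tested genes measured on all 6 arrays, the genotypes did not overlap for 15 of 40 that were lower (19.4% of all genes) and for 6 of 40 that were higher (18.0% of all genes). The 15 were Adam2, Adam11, Adam12, Adam19, Adam23, Adamts1, Adamts2, Adamts3, Adamts5, Adamts6, Adamts7, Adamts12, Adamts14, Adamts19 and Adamtsl1. The 6 were Adam15, Adam17, Adam32, Adamts15, Adamtsl4 and Adamtsl5. Adamts3, Adamts12 and Adamts19 among them, and Adam2, were not above background on every knockout array and entered through the controls. Adam32 is placed by 1 of its 2 tested probes; the other was lower without overlap, by -0.59 (SE 0.22, adjusted p 0.146). Most reproductive-tract ADAMs that could be tested stayed near 0: in the 9 ADAMs outside the groups above, fold changes at the probe that stands for each gene ranged from -0.28 to 0.52, with 0 called and 0 at an unadjusted p under 0.05 in limma.

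Cell type markers moved beside these genes. Among all genes 48.8% had a negative and 51.2% a positive fold change. At an unadjusted p under 0.05 in limma 14.5% were lower and 13.7% higher, and 2.47% and 1.35% were called. All 7 fibroblast markers had a negative fold change (median -0.73, 1 called, Pdgfrb, and 5 at an unadjusted p under 0.05). Their summed level was 32.1 to 35.7 in controls against 16.5 to 23.9 in knockouts. The 5 tested endothelial markers were also negative (median -1.17, 0 called, all 5 at an unadjusted p under 0.05), with sums of 4.99 to 6.07 and 1.56 to 3.15. In contrast the 5 tested smooth muscle markers were positive (median 0.36, 0 called, 1 at an unadjusted p under 0.05), with sums of 40.9 to 50.8 in controls against 56.2 to 66.2 in knockouts. The 7 tested epithelial markers were positive too (median 1.26, 0 called, 2 at an unadjusted p under 0.05), with sums of 14.4 to 52.8 and 60.5 to 81.1. No defining marker of these lists was at background throughout. What part these cells had in the ADAMTS differences was not tested.

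The inhibitors, regulators and substrates of these proteases comprised 65 listed genes, of which 56 were tested; 4 were called lower and 1 higher, against 2.47% and 1.35% of all genes. Among the inhibitors 0 of 4 tested were called and 1 was lower at an unadjusted p under 0.05 in limma (14.5% of all genes). Timp1, a secreted inhibitor of metalloproteinases induced by inflammation, was at 2.06, 2.56 and 2.40 in controls against -1.64, 1.36 and 0.61 in knockouts. It had the same wide spread and the same lowest array as Adamts1, and its difference of -2.23 (SE 0.72) did not pass (adjusted p 0.112). Timp2 differed by -0.28 (SE 0.17, adjusted p 0.330) and Timp4 by 0.30 (SE 0.17, adjusted p 0.299). Timp3, the main inhibitor of ADAM17 and of the aggrecanases, and Reck, a membrane-anchored inhibitor, were read only with outlier spots kept and differed by -0.12 (SE 0.15, adjusted p 0.632) and -0.51 (SE 0.25, adjusted p 0.237).

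Regulators of ADAM10 and ADAM17 gave 0 calls among 10 tested genes, 4 being lower (14.5% of all genes) and 3 higher (13.7% of all genes) at an unadjusted p under 0.05 in limma. Rhbdf1 and Rhbdf2 encode the iRhoms, which escort ADAM17 to the cell surface. Rhbdf1 went from 0.53, 0.60 and 0.71 in controls to -0.02, -0.14 and 0.06 in knockouts, a difference of -0.65 (SE 0.15, adjusted p 0.0591). Rhbdf2 went from 0.77, 0.93 and 1.01 to -0.04, 0.30 and 0.34, a difference of -0.70 (SE 0.17, adjusted p 0.0669). Both were separated by genotype and both missed the threshold. Adam17 itself overlapped at its bright probe, read with outlier spots kept, but not at its dim tested probe.

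Among 22 tested membrane proteins released by shedding, 1 was called lower (2.47% of all genes) and 1 higher (1.35% of all genes). A negative fold change was seen in 15 (48.8% of all genes). At an unadjusted p under 0.05, 9 were lower and 2 higher, against 14.5% and 13.7% of all genes. Nrg1 and Cd44, encoding a growth factor and an adhesion receptor, were each called lower at another probe (-3.16 and -1.48) but not at the probe that stands for them (-2.52, adjusted p 0.0547, and -1.45, adjusted p 0.0633). Tgfa, a ligand of the EGF receptor released by ADAM17, rose by 2.89 (SE 0.39, adjusted p 0.0329), from -5.25 and -3.96 in the usable controls to -1.66, -1.88 and -1.59 in knockouts. Dll1, a Notch ligand cleaved by ADAM10, fell by 1.06 (SE 0.19, adjusted p 0.0416), from -0.03, 0.18 and 0.35 to -0.98, -1.06 and -0.62.

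Among 15 tested substrates of ADAMTS proteases 14 had a negative fold change, with a median of -0.41, against 48.8% of all genes, and 1 was called, against 2.47% of all genes called lower. That gene was Bgn, encoding the proteoglycan biglycan, which fell by 1.41 (SE 0.27, adjusted p 0.0458). Vcan, encoding versican, the chief substrate of Adamts1, Adamts4, Adamts5 and Adamts9, was at 1.05 and 1.00 in the usable controls and -2.84, -1.43 and -1.06 in knockouts. The Vcan groups lay about 2 log2 units apart, and the difference of -2.80 (SE 0.54) just missed the threshold at this probe (adjusted p 0.0526), while its other called probes gave -2.90 and -2.34. Acan, encoding aggrecan, was not above background on any array.

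Of 4 tested genes whose proteins share microfibrils with these proteases, 1 was called lower, Papln. The 1 gene listed for clearance, Lrp1, was also called lower, against 2.47% of all genes. Papln encodes papilin, a relative of the ADAMTS proteins that lacks their protease domain. It fell by 3.63 (SE 0.60, adjusted p 0.0373), from -2.51, -2.88 and -2.79 to -7.67, -6.32 and -5.06, with 1 of 3 knockout arrays well above background, so that the size is uncertain. At another called probe Papln differed by -3.90 (SE 0.37, adjusted p 0.0161 in limma). Lrp1, the endocytic receptor that removes several ADAMTS proteases from the cell surface, fell by 1.28 (SE 0.16, adjusted p 0.0245), from 2.31, 2.04 and 1.95 to 0.81, 0.84 and 0.81. Its 3 knockout arrays lay close together and well under the controls. Adamdec1, an ADAM-like secreted protease abundant in the gut and outside the naming rule, differed by -0.73 (SE 0.28, adjusted p 0.156) with outlier spots kept.

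**Figure D4:**
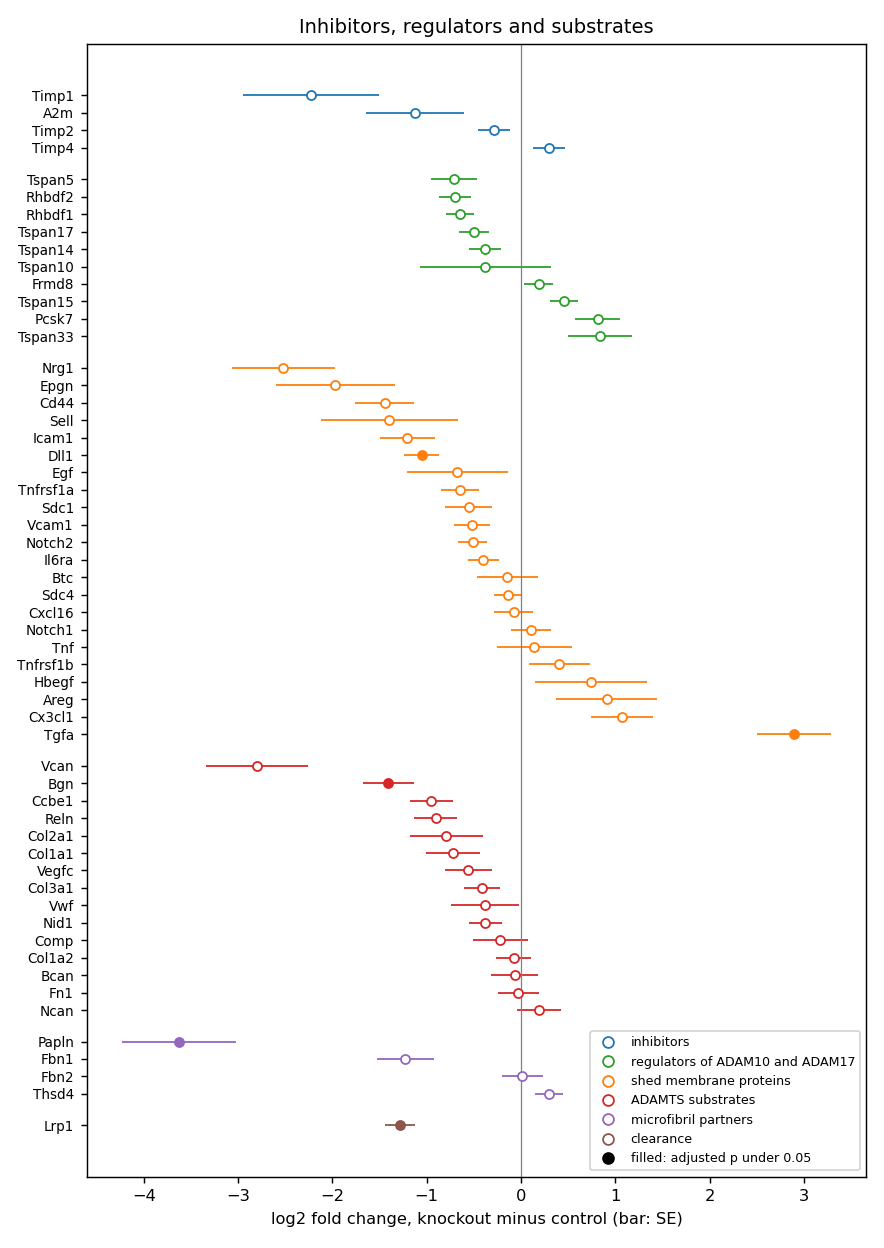
Log2 fold change (knockout minus control, x axis, bars of 1 SE) of the tested inhibitors, regulators, substrates and partners of ADAM and ADAMTS proteases, coloured by list; filled points have an adjusted p under 0.05 in limma. Filled points are Dll1, Bgn, Papln and Lrp1 below 0 and Tgfa above 0, and 14 of 15 ADAMTS substrates lie below 0.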

How the data were processed

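The authors deposited 1 Agilent Feature Extraction file per array (version 11.5.1.1, array design 074809, per the file headers; the submitters' processing notes name 10.7). Each holds the red channel's processed signal, an intensity after spatial detrending and background subtraction, unscaled between arrays, per the file headers; the labels name Cy3. The deposited value table holds the same intensity per probe (log2 correlation at least 0.99999). Here log2 of the signal minus the array's 75th percentile over 59305 non-control spots was used, outlier spots (3.26% to 16.0% of an array, 10.7% to 56.8% of its brightest decile) were set to missing, and spots of a probe were averaged. Linear models in limma 3.58.1 (R 4.3.3, lmFit, eBayes) gave two-sided tests for 35351 of 56605 probes, Benjamini-Hochberg adjusted over all of them. SDs and SEs rest on 2 or 3 usable arrays per group, whose number limits the precision, and nothing says how the mice were related. The procedure was tested on simulated data.

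Members, lists and tests were chosen with earlier results of these data known. Array values were given for called members, members with a 2-fold change at an unadjusted p under 0.05, those above background in 1 genotype, and well-known members fixed by name; Adam33, Adamtsl4 and others were added after their values were seen. Replicate numbers name the animals only. RefSeq names and promoters are of GRCm38.p6, whereas the files place probes on mm9, so no probe coordinates are given and the only coordinates printed are those of the RefSeq promoter windows. Protein sequences were not used here.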

Additional observations from a re-analysis of the deposited data

How the results depend on the processing

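The 19 member genes followed across settings kept the direction of their fold change in all 274 combinations of gene and alternative that gave a value; 10 lost and 17 gained a call. Against 1403 probes called in the chosen setting, there were 2768 under normexp with quantile normalization, 2249 under median scaling, 2185 under quantile normalization, 484 with no filter on dim probes, 8119 with array weights, and 40 to 2114 with an array left out. Against 3 members lower, there were 6 under normexp with quantile normalization, 7 under median scaling, 9 with array weights (3 members higher there: Adam33, Adamts15 and Adamtsl4), and 0 to 5 with an array omitted (0 if that was control replicate 2, control replicate 3 or knockout replicate 3). These counts choose the brightest tested probe of a gene anew in each fit; with the probe held from the fit on 6 arrays, chosen after seeing the data, the count without control replicate 3 was 1, Adam23, and the other settings gave the same counts. Counting any tested probe, an alternative chosen after seeing the data, gave 4. Adam23 and Adamts7 were called in all 9 other settings on 6 arrays, and Adamts14 in 7. The median over the tested members ran from -0.24 to 0.15 with an array left out. The cause of these changes was not tested. No paired analysis was possible because the labels give no replicate numbers. Signals close to background limit Adamts3, Adamts12, Adamts19 and Papln.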
